A study of Arabidopsis thaliana with 9 samples.

Results

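The genes described here are GID1A (AT3G05120), GID1B (AT3G63010) and GID1C (AT5G27320), which encode the gibberellin receptors of Arabidopsis thaliana. They were taken as the probe sets that the platform annotation assigns to exactly 1 gene bearing one of these symbols. Each gene had 1 such probe set, so the members were 3 of 22746 tested probe sets, of which 13513 had exactly 1 gene, for 13356 genes in all. Total RNA of developing inflorescence tips was hybridised to 9 single-colour arrays. The wild type (WT, Col-0), er-2 and epfl4 epfl6 had 3 arrays each, all in the Col-0 background, 33 days after germination, on soil in continuous light and without treatment. ERECTA is a receptor kinase that promotes growth of stems and pedicels, and er-2, described in the design text as allelic to er-106, carries a mutant form of it. The EPFL4 and EPFL6 genes code for secreted peptides that act as ligands of ERECTA, and epfl4 epfl6 is mutant in both. The study asked which transcripts change when the receptor or its ligands are lost. The labels call the samples biological replicates and do not say how many plants made up a sample.

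Gibberellins are diterpenoid hormones that promote stem elongation, flowering and stamen growth. A GID1 protein binds the hormone in the nucleus or cytosol, and the hormone-bound receptor then binds a DELLA protein, a repressor of growth genes. The F-box proteins SLY1 and SLY2 of the ubiquitin ligase machinery mark the bound DELLA for degradation, which releases growth. The 3 receptors overlap in function in Arabidopsis, where a plant without all of them is a severe dwarf, and GID1A and GID1B are known from seedlings as genes whose transcripts go up when gibberellin is low and DELLA proteins are abundant.

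The values are log2 signals as deposited, so a difference of 1 stands for a doubling. Array medians lay between 5.82 and 5.91, and lower quartiles between 3.22 and 3.33. A probe set was called where limma's adjusted p, by Benjamini-Hochberg over all 22746 probe sets, was under 0.05. The p-values measure the spread between these samples, and the number of arrays limits the precision. Of 12 meristem and floral organ markers only CLV3, a stem cell peptide gene of the shoot meristem, had a named probe set, and it lay below the lower quartile of all 9 arrays, so the tissue label had no support from that list. Anther and tapetum markers were present, with a mean log2 signal over 6 measured of 14 genes between 8.13 and 8.73 in WT. In bulk tissue, more cells of a type and more RNA per cell cannot be told apart.

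GID1A transcript was higher in both mutants than in WT. Its log2 signal in WT was 6.48, 6.77 and 6.56 in replicates 1 to 3. In er-2 it was 7.32, 7.18 and 7.17. In epfl4 epfl6 it was 6.90, 6.99 and 7.02. All 3 er-2 arrays lay above all 3 epfl4 epfl6 arrays, and these above all 3 WT arrays, with no overlap between any of the genotypes. Non-overlap with WT was common, at 36.1% of all probe sets for er-2 and 44.4% for epfl4 epfl6.

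**Figure D1:**
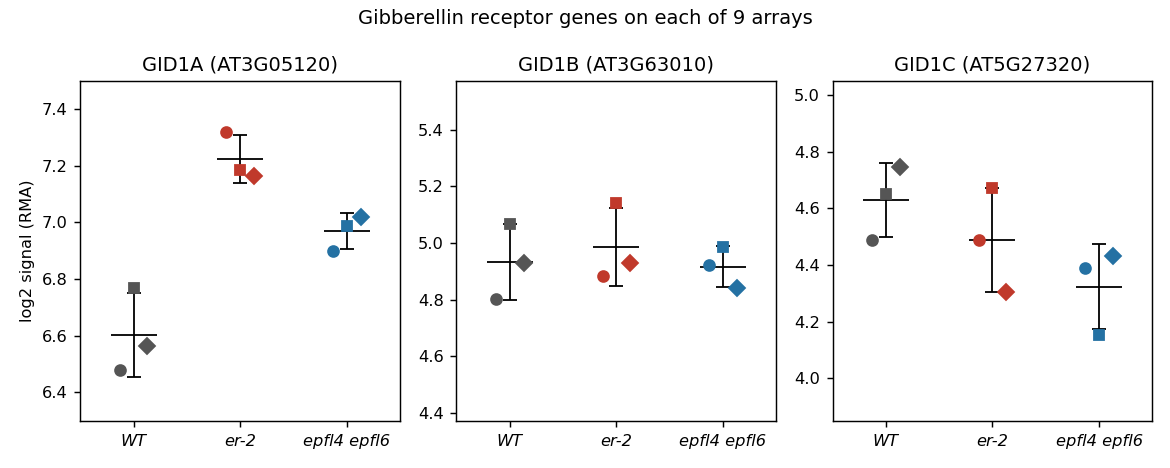
Log2 signal (vertical axes, each spanning 1.2 units) of GID1A, GID1B and GID1C on every array, by genotype; circles, squares and diamonds are replicates 1, 2 and 3, the long bar is the mean and the whiskers are the SD (n = 3). The genotypes lie fully apart for GID1A (WT lowest, er-2 highest) and overlap for GID1B. For GID1C the epfl4 epfl6 arrays lie below the WT arrays while er-2 overlaps both.

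In er-2 GID1A rose from 6.60 ± 0.148 to 7.22 ± 0.0841 (SD, n = 3), a log2 change of 0.62 ± 0.083 (SE) or 1.54-fold (95% interval 1.35 to 1.75; limma adjusted p = 0.000761). The size of this change exceeded that of 95.3% of all probe sets in the same comparison, where 20.8% of probe sets were called, 11.8% higher and 9.01% lower as shares of all tested. It was the only one of the 3 receptor genes called there. In epfl4 epfl6 GID1A rose to 6.97 ± 0.0621 (SD, n = 3), a log2 change of 0.37 ± 0.083 (SE) or 1.29-fold (95% interval 1.13 to 1.47; limma adjusted p = 0.00703). This mutant had 33.9% of all probe sets called, 17.9% higher and 16.0% lower, and the change of GID1A was larger than 79.1% of all changes. Both comparisons use the same WT arrays, so the pair of rises is not a pair of independent observations.

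The order of GID1A levels was er-2, epfl4 epfl6, WT. The upper neighbours in this order, er-2 and epfl4 epfl6, had a log2 difference of 0.25 ± 0.083 (SE; 95% interval 0.07 to 0.44), which missed the threshold (limma adjusted p = 0.0582), with 20.2% of all probe sets called in that comparison, 10.2% higher and 10.0% lower in er-2. Their arrays did not overlap, as was so for 36.5% of all probe sets. The difference passed under 5 of 17 alternatives, with adjusted p from 0.0314 without WT replicate 2 to 0.181 without er-2 replicate 1, leaving aside the fit with a covariate for RNA quality.

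GID1B transcript did not differ between the genotypes by more than its spread. This receptor gene had log2 signals of 4.80, 5.07 and 4.93 in WT replicates 1 to 3. In er-2 they were 4.88, 5.14 and 4.93, and in epfl4 epfl6 4.92, 4.99 and 4.84. The ranges of all 3 genotypes overlapped, and all 9 values lay below the array medians and above the lower quartiles. The log2 change was 0.05 ± 0.0904 (SE; 95% interval −0.15 to 0.25; limma adjusted p = 0.751) for er-2, then −0.02 ± 0.0904 (95% interval −0.22 to 0.19; adjusted p = 0.914) in epfl4 epfl6. As a fold, the intervals ran from 0.901 to 1.19 in er-2 and from 0.859 to 1.14 in epfl4 epfl6. In this fit they exclude a rise of GID1B as large as the fitted 1.54-fold and 1.29-fold rises of GID1A. The interval of GID1A in epfl4 epfl6 began at 1.13, so the intervals of both genes overlapped there. With the covariate for RNA quality the log2 change of GID1B in epfl4 epfl6 was −0.43 ± 0.437 (SE), too imprecise for such an exclusion. No order of the genotypes could be given for GID1B, because every neighbouring pair differed by less than its spread (er-2 minus epfl4 epfl6 0.07 ± 0.0904, adjusted p = 0.656).

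GID1C transcript was lowest in epfl4 epfl6, by a margin that missed the threshold. Its log2 signals were 4.49, 4.65 and 4.75 in WT replicates 1 to 3. In er-2 they were 4.49, 4.67 and 4.31, a range that covers WT replicates 1 and 2 and overlaps both other genotypes. In epfl4 epfl6 they were 4.39, 4.15 and 4.43, all below the 3 WT arrays. The log2 change in epfl4 epfl6 was −0.30 ± 0.111 (SE; 95% interval −0.55 to −0.06; limma adjusted p = 0.0592), or 0.81-fold. Their non-overlap with WT was again of a kind found for 44.4% of all probe sets. In er-2 the log2 change of GID1C was −0.14 ± 0.111 (95% interval −0.39 to 0.11; adjusted p = 0.436), and er-2 and epfl4 epfl6 had a difference of 0.17 ± 0.111 (adjusted p = 0.345). The value in epfl4 epfl6 passed the threshold under 4 of 17 alternatives (adjusted p from 0.0418 without er-2 replicate 3, with 0.0449 without WT replicate 1 and 0.0438 without er-2 replicate 2), and its highest adjusted p among fits without the RNA quality covariate was 0.186 without epfl4 epfl6 replicate 2.

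**Figure D2:**
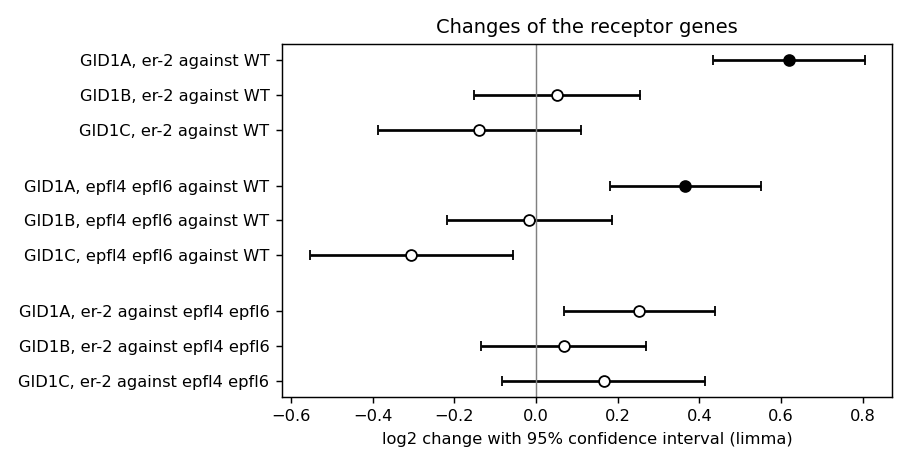
Log2 change (horizontal axis) of each receptor gene in the 3 comparisons, with the 95% confidence interval of the limma fit; filled points have an adjusted p under 0.05. Only GID1A against WT is filled, at 0.62 for er-2 and 0.37 for epfl4 epfl6; the interval of GID1C in epfl4 epfl6 lies below 0 without passing the adjusted threshold.

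The 3 receptor genes thus had different calls, and the difference in their response was tested directly. For each array the log2 signal of one gene was subtracted from that of another, which compares changes and not levels. An exact permutation test of the spread between genotype means then ran over the 280 ways of forming 3 groups of 3 arrays. It asks whether the genotypes differ at all, without a direction, and tests neither mutant alone against WT. GID1A minus GID1B was 1.67 ± 0.0328 in WT, 2.24 ± 0.197 in er-2 and 2.05 ± 0.111 in epfl4 epfl6 (SD, n = 3; exact permutation p = 0.00714, adjusted over the 3 pairs of genes 0.0214). Every mutant array had a larger value than every WT array, the lowest being 1.98 and the highest WT array 1.70. GID1A minus GID1C was 1.98 ± 0.151 in WT, 2.73 ± 0.193 in er-2 and 2.65 ± 0.168 in epfl4 epfl6 (SD, n = 3; exact permutation p = 0.0286, adjusted 0.0429). This adjusted value was 0.0536 without er-2 replicate 3 or without epfl4 epfl6 replicate 1. GID1B minus GID1C was 0.31 ± 0.118 in WT, 0.50 ± 0.117 in er-2 and 0.59 ± 0.218 in epfl4 epfl6 (SD, n = 3; exact permutation p = 0.146, adjusted 0.146). On all 9 arrays, the balance of GID1A against either other receptor transcript thus differed among the genotypes by this test. Its means were higher in both mutants than in WT. The test took no account of RNA quality, which also moved with the genotypes. GID1A lay above the array medians on all 9 arrays, and GID1B and GID1C below them. The part of RNA quality or of signal level in these differences was not tested, and cross-matching of probes between the 3 genes was not checked. The balance of GID1B against GID1C was not shown to differ at this number of arrays.

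Measures of RNA quality and of other cells moved with the genotypes as well. The log2 signal of the 3′ probe sets minus that of the 5′ probe sets, averaged over the actin, GAPDH and ubiquitin controls, was 3.31 ± 0.120 in WT, 2.89 ± 0.0684 in er-2 and 2.37 ± 0.105 in epfl4 epfl6 (SD, n = 3; exact permutation p = 0.00357, the smallest it can give). The log2 signal of the 25S ribosomal RNA control was 11.81 to 11.86 in WT, 11.77 to 11.96 in er-2 and 11.16 to 11.46 in epfl4 epfl6, so that it was lower on all arrays of that mutant than on any other. With the 3′ minus 5′ difference as a covariate the log2 change of GID1A was 0.47 ± 0.196 (SE; limma adjusted p = 0.354) for er-2 and 0.03 ± 0.405 (adjusted p = 0.994) for epfl4 epfl6. Standard errors over all probe sets were then at a median 2.30 and 4.76 times those without it. The mean log2 signal of the 6 measured anther and tapetum markers was 8.13 to 8.73 in WT, 7.15 to 8.11 in er-2 and 6.15 to 6.46 in epfl4 epfl6. ATA27 and SHT changed most, by −1.98 (not called) and −1.90 in er-2 and by −6.34 and −4.66 in epfl4 epfl6. The others changed by −0.37 to −0.27 in er-2 and by −0.83 to −0.27 in epfl4 epfl6. The number of the 6 that were called lower was 3 in er-2, then 5 in epfl4 epfl6, where 9.01% and 16.0% of all probe sets were called lower. The 3 measured photosynthesis markers of a list of 4 were called higher in both mutants (11.8% and 17.9% of all probe sets were), with mean log2 signals of 11.43 to 11.55 in WT, 11.83 to 11.92 for er-2, and 11.76 to 11.88 for epfl4 epfl6. The part of these shifts in the values of the receptor genes was not tested beyond the covariate fit, and no named probe set measured pollen, xylem, phloem or endodermis markers.

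The receptors pass their signal on through the SLY1 and SLY2 F-box proteins, and SPY and SEC are sugar transferases that modify DELLA proteins. In er-2 none of these 4 genes was called, against 20.8% of all probe sets, with log2 changes from −0.10 to 0.12 (limma adjusted p = 0.147 for SLY1, the smallest). The number with an unadjusted p under 0.05 among them in er-2 was 1, SLY1. In epfl4 epfl6, 3 of the 4 were called, against 33.9% of all probe sets. SLY1 (AT4G24210), with WT signals of 7.88 to 7.94, rose by 0.30 ± 0.0523 (SE; limma adjusted p = 0.00167) there. SLY2 (AT5G48170) rose by 0.33 ± 0.0895 (adjusted p = 0.0162), a call lost without WT replicate 1 or 2 or epfl4 epfl6 replicate 3. SPY (AT3G11540), known as a brake on gibberellin responses, fell by 0.27 ± 0.0573 (adjusted p = 0.00531). SEC had a log2 change of −0.20 (adjusted p = 0.0636).

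Genes for gibberellin transport were all called in epfl4 epfl6, where 2 rose and 2 fell, and 1 of the 4 was called in er-2. Over all probe sets the shares called were 33.9% and 20.8%. NPF3.1 (AT1G68570), a plasma membrane importer of gibberellin, shared the direction of GID1A in both mutants. Its log2 signals were 7.78, 7.94 and 7.83 in WT replicates 1 to 3, 8.25, 8.32 and 8.17 in er-2, and 8.12, 8.16 and 8.25 in epfl4 epfl6. The mutant arrays all lay above the WT arrays. Full separation from WT, in either direction, held for 36.1% of all probe sets with er-2 and 44.4% with epfl4 epfl6. The rise of NPF3.1 in er-2 was 0.39 ± 0.0689 (SE; limma adjusted p = 0.00321), and that in epfl4 epfl6 0.33 ± 0.0689 (adjusted p = 0.00489). NPF4.1 (AT3G25260), another carrier of this family, rose by 0.39 ± 0.0944 in epfl4 epfl6 (adjusted p = 0.00971), against −0.24 in er-2, which was not called (adjusted p = 0.103). SWEET13 and SWEET14, sugar exporters that also carry gibberellin, fell by 0.36 and 0.56 in epfl4 epfl6 (adjusted p = 0.0185 and 0.00572). Their er-2 values were −0.27 and −0.30, not called (adjusted p = 0.0904 and 0.117). The call of SWEET13 was lost without WT replicate 1 or epfl4 epfl6 replicate 2, and with quantile normalization again.

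Of 9 genes known from seedlings as targets of DELLA proteins, a group to which GID1A and GID1B also belong, 4 had a named probe set. In er-2, 2 fell and none rose, where 9.01% of all probe sets were called lower and 11.8% higher. In epfl4 epfl6 3 fell and 1 rose, where these shares were 16.0% and 17.9%. IQD22, a calmodulin-binding protein gene, fell in both mutants, in er-2 by 0.48 ± 0.140 (SE; limma adjusted p = 0.0349) and in epfl4 epfl6 by 0.57 (adjusted p = 0.0107). Its call in er-2 did not hold in a fit on only the 6 arrays compared, nor when any 1 of WT replicates 1 and 3, er-2 replicates 1 and 2 and epfl4 epfl6 replicate 3 was left out. AT2G31730 also fell in both, in er-2 by 0.42 ± 0.0958 (adjusted p = 0.0124) and in epfl4 epfl6 by 0.31 (adjusted p = 0.0305), the second call failing when any 1 of replicates 1 and 3 of WT and replicates 1 and 3 of epfl4 epfl6 was left out. XERICO, a RING-type ubiquitin ligase gene tied to abscisic acid levels, fell by 0.38 ± 0.0701 in epfl4 epfl6 (adjusted p = 0.00244), against −0.12 in er-2, which was not called (adjusted p = 0.293). AT5G50915 rose by 0.62 ± 0.131 in epfl4 epfl6 (adjusted p = 0.00485), as much as GID1A did in er-2, while its own log2 change in er-2 was −0.02 (adjusted p = 0.948).

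The GASA family encodes small cysteine-rich peptides, several of them induced by gibberellin, and 6 of its 14 listed genes were measured, all under locus tags. AT2G14900 had log2 signals of 9.51, 9.31 and 9.53 in WT replicates 1 to 3, 8.69, 8.52 and 8.76 in er-2, and 8.96, 9.06 and 9.06 in epfl4 epfl6. It was lowest in er-2, with no overlap between the genotypes. Of all probe sets, 36.1% did not overlap between er-2 and WT, 44.4% between epfl4 epfl6 and WT, and 36.5% between the mutants. The fall of AT2G14900 was 0.80 ± 0.084 in er-2 (SE; limma adjusted p = 0.000207), and in epfl4 epfl6 it was 0.42 ± 0.084 (adjusted p = 0.00343). AT5G59845 fell by 1.44 ± 0.256 in epfl4 epfl6 (adjusted p = 0.00183), against −0.32 in er-2, which was not called (adjusted p = 0.432). AT2G18420 fell by 1.51 ± 0.302 in epfl4 epfl6 (adjusted p = 0.00357) to a mean of 3.19. Its signals there were 3.08, 3.22 and 3.25, where the lower quartiles of these arrays were 3.22, 3.29 and 3.23. The size of a fall to so dim a signal is uncertain. Its log2 change in er-2 was −0.91 ± 0.302 (adjusted p = 0.0612), which was not called but passed under 3 of 17 alternatives, and its er-2 arrays, at 3.21 to 4.46, overlapped those of WT, at 4.37 to 5.27. The mean of the anther and tapetum markers was also lower in epfl4 epfl6, and the part of such cells in these falls was not tested. The other 3 were not called in either mutant, AT2G30810 lying below the lower quartile on all 9 arrays and AT2G39540 on 8. Of the 6 measured genes, 1 was thus called in er-2 and 3 in epfl4 epfl6, all lower. Over all probe sets 9.01% and 16.0% were called lower.

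**Figure D3:**
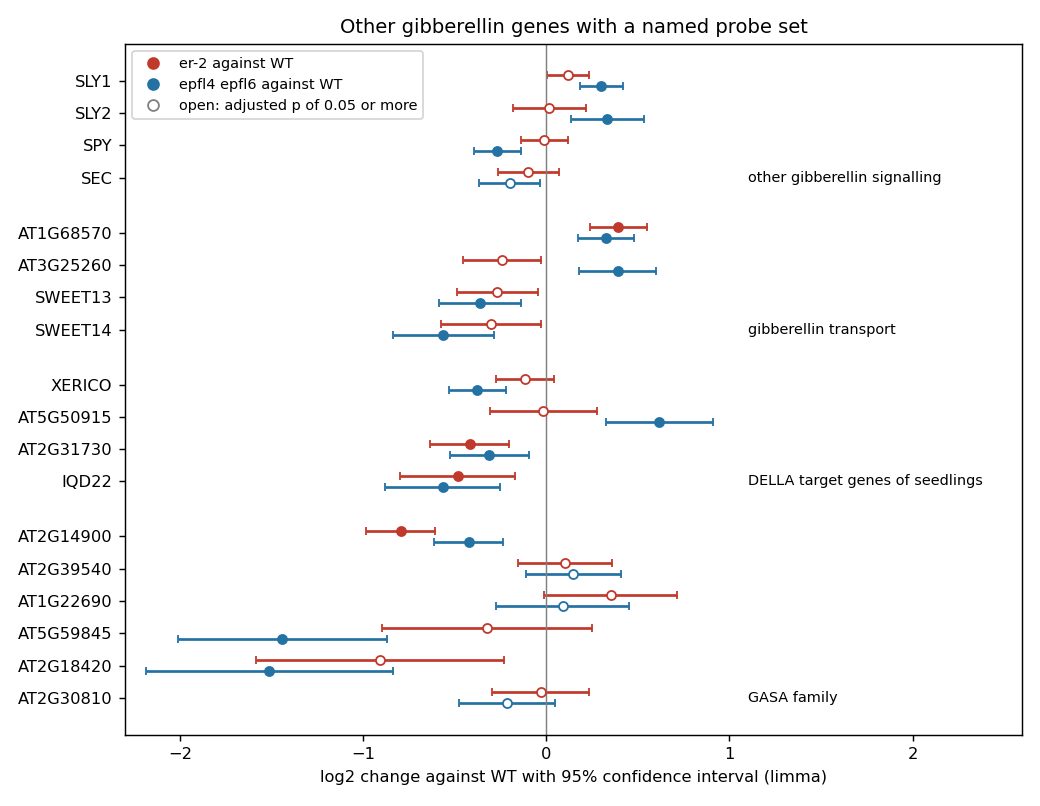
Log2 change against WT (horizontal axis) of the 18 other gibberellin genes with a named probe set, red for er-2 and blue for epfl4 epfl6, with 95% confidence intervals of the limma fit; open points have an adjusted p of 0.05 or more. In er-2 4 points are filled and in epfl4 epfl6 14, most of them to the left of 0.

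Over these sublists 18 of 64 listed genes other than the receptors were measured, and none of the 5 DELLA genes, 14 synthesis genes or 11 inactivation genes was among them; these are not analysed here. In er-2, 1 of the 18 was called higher and 3 lower, or 22.2%, close to the 20.8% of all probe sets called. In epfl4 epfl6, 5 were called higher and 9 lower, or 77.8% against 33.9% of all probe sets. Between er-2 and epfl4 epfl6, 8 of the 18 were called, 3 higher and 5 lower in er-2, or 44.4% against 20.2%. In er-2 the median size of the log2 changes of the 18 was 0.25, against 0.12 over all probe sets, and for epfl4 epfl6 these medians were 0.35 and 0.16.

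The genes with the pattern most like that of GID1A were found among 13512 other probe sets with 1 gene, by the root mean square difference between log2 values over the 9 arrays after each gene was centred on its own mean. The nearest were AT4G19830 at 0.0674, AT1G05720 at 0.075, AT3G15800 at 0.0807, TAPX (AT1G77490) at 0.0872 and AT1G55000 at 0.0907, where the median over all candidates was 0.291. TAPX encodes the ascorbate peroxidase of the thylakoid membrane. Of those with a symbol other than a locus tag, the next were WLIM1 at 0.092, which encodes an actin-binding LIM protein, and ATPC1 at 0.0975, which encodes the gamma subunit of the chloroplast ATP synthase. The log2 changes of these 7 genes ran from 0.46 to 0.61 in er-2 and from 0.20 to 0.40 in epfl4 epfl6. They are a description, since the genes were chosen for this pattern.

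**Figure D4:**
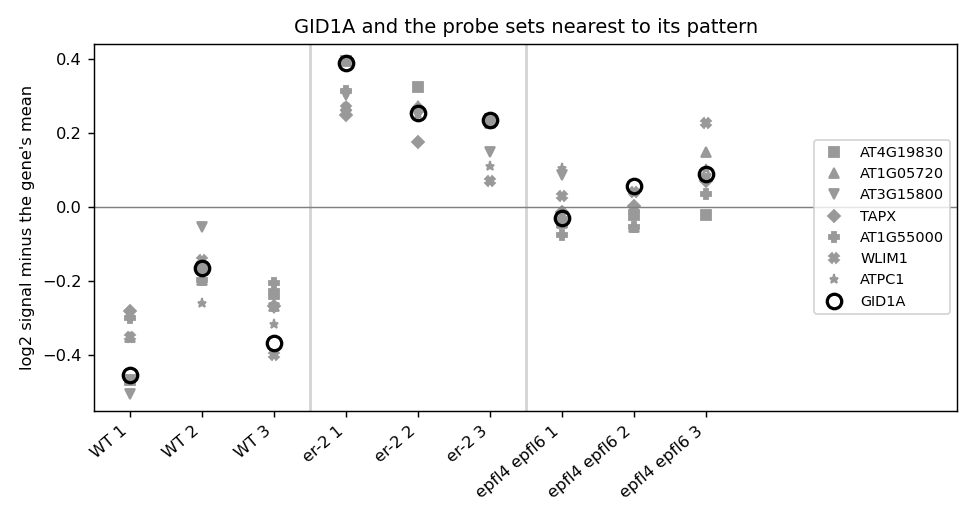
Log2 signal of each gene minus its own mean over the 9 arrays (vertical axis), by array, for GID1A (open circles) and 7 genes (grey). The grey genes are the 5 nearest in pattern, with WLIM1 and ATPC1 as the next nearest with a symbol other than a locus tag. On all WT arrays the genes lie below their means, and on all er-2 arrays above them. The epfl4 epfl6 arrays lie between both for GID1A and for each grey gene except WLIM1, where epfl4 epfl6 replicate 3 at 9.08 lies above er-2 replicate 3 at 8.92 (log2 signals before centring).

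GID1A and GID1B lie on chromosome 3 and GID1C on chromosome 5, per their locus tags. The 3 nearest measured genes on either side of each were compared in the same way. None of the 6 neighbours of GID1A was called in er-2, where 20.8% of all probe sets were, and their changes lay between −0.34 and 0.11. Of these neighbours 2, AT3G05110 and AT3G05150, had an unadjusted p under 0.05, both with negative changes. In epfl4 epfl6, with 33.9% of all probe sets called, 1 of the 6 was called, AT3G05100, which rose by 0.39 (limma adjusted p = 0.00138). None of the 6 neighbours of GID1B was called in er-2, where 2, AT3G62970 and AT3G63050, had an unadjusted p under 0.05, and 1, AT3G62970, was called in epfl4 epfl6, where it rose by 0.26 (adjusted p = 0.00827). Next to GID1C, the sugar transporter gene SFP1, which lies 3 genes away, rose in both mutants, in er-2 by 0.77 (adjusted p = 0.00363) and in epfl4 epfl6 by 1.00 (adjusted p = 0.000454), and AT5G27290 rose by 0.30 in er-2 (adjusted p = 0.00923). The other 4 neighbours of GID1C were not called against WT in either mutant.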

How the data were processed

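The authors deposited log2 expression values of 22810 probe sets on every array. RMA and limma are named in the submitters' processing notes, and their versions and settings are not given in the sources used here. No further normalization was applied. RMA makes arrays comparable by quantile normalization, so a value is relative to the other transcripts of its array, and levels of different probe sets were not compared. The 64 control probe sets were left out of the tests. Of those tested, 13513 had 1 gene in the platform annotation, 503 had several and 8730 were not listed and left unnamed. Symbols were updated, and gene order taken, through a RefSeq table of TAIR10.1, whose build was not matched to the array, so no positions are given.

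The fit was limma 3.58.1 in R 4.3.3, two-sided, fitting 1 mean for each genotype to the 9 arrays, with Benjamini-Hochberg adjustment over 22746 probe sets. Confidence intervals are 95% limma intervals. Permutation tests and likeness were computed in Python 3.11.15. The fit was tested on simulated data drawn from the observed means and spreads of 22746 probe sets. For er-2 against WT it recovered 75% of the changes set at a log2 size of 0.6, and 17% at a size of 0.3, and made 6 false calls. In epfl4 epfl6 against WT the shares were 75% and 8%, and the false calls 2. The simulation changed 100 probe sets at each size, whereas in the data 20.8% (er-2) and 33.9% (epfl4 epfl6) of probe sets were called. The adjustment is stricter where few probe sets change, so these shares do not give the recovery in the data. Alternatives covered the scaling (a further quantile normalization, or centring on array medians), the dimmest 30% of probe sets left out, a robust variance trend, weights per array, a replicate block, only the 6 arrays compared, the 3′ minus 5′ difference as a covariate, and each array left out in turn.

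Genes were named by rule: the receptor genes, up to 4 members of each pathway list by smallest p in each mutant, the genes nearest in pattern, and the neighbours. The members and lists were chosen with earlier results of these data known.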

Additional observations from a re-analysis of the deposited data

Results flagged for a closer look

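At a limma adjusted p under 0.05, 8 of the 18 other gibberellin genes differed between er-2 and epfl4 epfl6, or 44.4%. Over all probe sets, dim ones included, 20.2% did. No receptor gene passed, but GID1A missed the threshold narrowly (0.25, adjusted p = 0.0582), with a difference about as large as those of SPY and XERICO. Values are the log2 change in er-2 minus that in epfl4 epfl6, and both changes share the WT arrays. Lower in er-2 were SLY1 (−0.18, adjusted p = 0.0361), SLY2 (−0.32, adjusted p = 0.0331) and NPF4.1 (AT3G25260; −0.63, adjusted p = 0.00181). AT5G50915 (−0.63, adjusted p = 0.00812) and AT2G14900 (−0.37, adjusted p = 0.0124) were lower in er-2 as well. Higher in er-2 were SPY (0.26, adjusted p = 0.0119), XERICO (0.26, adjusted p = 0.0273) and AT5G59845 (1.12, adjusted p = 0.0131). For each of the 8 the arrays of both mutants lay fully apart, as did 36.5% of all probe sets. The call of SLY1 was lost under 10 of 17 alternatives, among them quantile normalization again, the replicate block, the fit on the 6 arrays compared and the omission of any 1 of 6 arrays. That of XERICO was lost under 7, median centring among them, and that of SLY2 under 6. Leaving out er-2 replicate 2 or 3 or epfl4 epfl6 replicate 1 or 3 ended the call of each of these genes. All 8 calls were lost in the fit with the RNA quality covariate.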

How the results depend on the processing

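Each value was recomputed under up to 17 alternatives. Without the RNA quality covariate, GID1A stayed called higher against WT in both mutants in every one. Its log2 change ran from 0.56 to 0.70 in er-2 and from 0.30 to 0.45 in epfl4 epfl6 on leaving out single arrays. With the 3′ minus 5′ covariate GID1A had changes of 0.47 (er-2) and 0.026 (epfl4 epfl6), neither called. The limma fit then called 205 probe sets in er-2 against WT, 0 in epfl4 epfl6 against WT (1664 at an unadjusted p under 0.05) and 32 between the mutants. Of the 18 pathway genes it called 0 in each comparison (4, 2 and 6 at an unadjusted p under 0.05, in the same order). The covariate and the genotype run together here, so the part of either cannot be told apart. GID1A differed between the mutants by 0.25 with adjusted p = 0.0393 without the dimmest probe sets, 0.0324 with a variance trend and 0.0406 on 6 arrays, and by 0.28 with array weights (0.0363), within 0.21 to 0.28 on leaving out single arrays. GID1C in epfl4 epfl6 changed by −0.30 with adjusted p = 0.0441 without the dimmest probe sets, within −0.37 to −0.22 on leaving out arrays.

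GID1B, never called, changed sign. In er-2 it had a log2 change of −0.13 with the covariate and −0.027 to 0.12 on leaving out arrays. In epfl4 epfl6 it had 0.058 with quantile normalization again, 0.032 with median centring and −0.0825 to 0.051 on leaving out arrays. Between the mutants it ran from −0.010 to 0.12. The adjusted p of GID1A minus GID1C ran from 0.0161 to 0.0536, and that of GID1A minus GID1B from 0.0161 to 0.0429.

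Replicate numbers were not shown to pair the samples over all probe sets. Same-numbered arrays correlated at −0.193 to 0.289 in their deviations from genotype means, and 3 of 9 arrays correlated best with their own number. Arrays with different numbers correlated at −0.279 to 0.278. A replicate block changed the standard error against WT from 0.0904 to 0.0678 for GID1B, 0.083 to 0.0882 for GID1A and 0.111 to 0.123 for GID1C. Whether single genes share a replicate effect was not tested. With the replicate block 7 pathway genes were called in er-2, against 4, and the log2 changes of the receptor genes were as before (GID1A adjusted p = 0.00286 and 0.0148). The counts of pathway genes called on leaving out arrays were 3 to 5 in er-2, 11 to 14 in epfl4 epfl6 and 5 to 8 between the mutants, with 5 without er-2 replicate 2 or 3 or epfl4 epfl6 replicate 3.

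Signs of single pathway genes turned as follows. On leaving out arrays in er-2, SLY2 ran from −0.036 to 0.12, SPY from −0.035 to 0.011, AT5G50915 from −0.13 to 0.049, AT2G39540 from −0.025 to 0.23 and AT2G30810 from −0.12 to 0.089. AT1G22690 ran from −0.11 to 0.28 in epfl4 epfl6, and IQD22 from −0.061 to 0.19 between the mutants. SPY in er-2 was 0.0073 with median centring, and AT5G50915 was 0.0006 with it and 0.0029 with quantile normalization again. With the covariate AT2G39540 was −0.35, AT1G22690 −0.27 and AT2G30810 0.50 in er-2. In epfl4 epfl6 the covariate gave 0.30 for AT2G31730, 0.34 for IQD22, 0.39 for AT2G14900, −0.87 for AT2G39540, −1.30 for AT1G22690 and 0.97 for AT2G30810. Between the mutants it gave −0.42 for IQD22, 0.52 for AT2G39540 and −0.47 for AT2G30810. The cause of these turns was not tested. Of the pathway genes called in the main comparison, 1 of 4 in er-2, 3 of 14 in epfl4 epfl6 and 3 of 8 between the mutants lost the call under some alternative other than the covariate.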

Other observations

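Some log2 signals were identical on 2 arrays to all deposited digits. GID1C was listed at 4.49 on both WT replicate 1 and er-2 replicate 1, and GID1B at 4.93 on both WT replicate 3 and er-2 replicate 3. Such ties on at least 2 arrays occurred in 9853 of 22746 probe sets, or 43.3%.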
